A study of Mus musculus with 17 samples.

Results

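The ADAM and ADAMTS genes encode a family of zinc metalloproteases and their close relatives, and 57 of them were measured in mouse periprostatic fat. Members were all genes whose symbol is Adam, Adamts, Adamtsl or Adamdec followed by a number, among the 22180 genes that had a probe set with a single gene symbol. For the 4 members with more than 1 probe set (Adam15, Adam19, Adamts14 and Adamts8), the probe set with the highest mean over the 17 arrays was used. Adamts2 had no probe set with a symbol here, and Adam34 had only probe sets shared with other symbols, so neither is among the 57.

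Fat surrounding the prostate was taken from 17 male C57BL/6J mice at 25 weeks of age, and each mouse gave 1 Affymetrix Mouse Gene 2.0 ST array. The LFD group (n = 6) ate a low fat diet with 10 percent of its calories from fat, freely, from 6 weeks of age for 12 weeks and then for 7 more. The HFD group (n = 6) ate a diet with 60 percent of its calories from fat on the same schedule. The HFD+CR group (n = 5) ate this high fat diet freely for the first 12 weeks and was then given, for 7 weeks, 70 percent of what the HFD group consumed, a 30 percent calorie restriction. HFD+CR mice therefore differed from HFD mice in assigned intake alone, and from LFD mice in both diet and intake.

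Most ADAM proteins sit in the cell membrane. Those with an active site cut the outer part off other membrane proteins, a step called shedding, which releases cytokines, growth factors and receptors. ADAMTS proteins are secreted and cut matrix proteins such as versican, procollagens and fibrillin-associated proteins, while ADAMTS-like proteins share their matrix-binding domains but have no protease domain. A further group of ADAM genes is known from testis, sperm and epididymis, where several act in sperm maturation and fertilization.

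Values are deposited log2 signals, so a difference of 1 is a doubling. Signals of different genes come from different probes. They were set only against array medians and the mean of the median gene, and members were not otherwise ranked by signal. Array medians over all 33793 probe sets lay between 7.03 and 7.15, and a signal below the median of its own array was not shown to be above background. Of the 57 members, 23 were above the median of the array on all 17 arrays and 24 were below it on all 17. Among the 10 active somatic ADAM genes 8 were always above, as were 5 of 5 ADAMTS-like genes and 4 of 7 proteoglycan-cleaving ADAMTS genes. Of the 21 genes known from germ cells, sperm or epididymis, 16 were always below the median.

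Adipocyte markers were bright on every array, with list means between 12.72 and 12.88 in LFD, 12.63 and 12.76 in HFD, and 12.83 and 12.93 in HFD+CR mice. Of 7 measured, 5 fell and 1 rose in HFD against LFD, and 5 rose in HFD+CR against HFD, so these markers moved with the diet groups; their part in the member differences was not tested. Brown or beige adipocyte markers stood high in LFD mouse 3 (list mean 10.83) and LFD mouse 6 (10.10), against 6.89 to 8.73 on the other arrays, and 3 of the 5 were lower in HFD+CR than in LFD. Skeletal muscle markers stood high in LFD mouse 2 (list mean 10.46), LFD mouse 3 (9.20) and HFD+CR mouse 2 (9.23). They were less high in HFD mouse 6 (8.02) and LFD mouse 5 (7.82), and lay between 6.75 and 6.86 on the other arrays. Prostate and gland epithelium markers stood high in LFD mouse 3 (8.13) and HFD mouse 3 (7.28), against 6.09 to 6.38 elsewhere. Male germ cell markers had a list mean of 8.48 in HFD+CR mouse 1, against 6.74 to 7.36 on the other 16 arrays. The count of called members in each comparison is therefore also given without the 4 arrays with muscle or gland transcripts, without these and HFD+CR mouse 1, and without LFD mice 3 and 6. The 4 arrays with muscle or gland transcripts are LFD mice 2 and 3, HFD mouse 3 and HFD+CR mouse 2. HFD mouse 6 and LFD mouse 5, with muscle markers less high, were kept.

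High fat feeding was compared with low fat feeding first. In HFD against LFD fat, 12 members rose and 5 fell at an adjusted p under 0.05 in limma with Benjamini-Hochberg adjustment over all genes. These 17 of 57 members are 29.8 percent, a share near the 27.8 percent called among all genes. The 12 that rose are 21.1 percent of the members, against 16.5 percent of all genes, and the 5 that fell are 8.77 percent, against 11.3 percent. The median member difference was 0.06 on the log2 scale, beside a median near zero over all genes. Groups did not overlap for 13 of 57 members, against 3162 of 22180 genes (14.3 percent). Leaving out the 4 arrays with muscle or gland transcripts gave 16 members, leaving out HFD+CR mouse 1 too gave 17, and leaving out LFD mice 3 and 6 gave 14 (12 higher and 2 lower). HFD+CR mouse 1 is not in this comparison, so leaving it out changes the shared spread and the adjusted p but no difference. With the median of each array subtracted, 12 members rose and 8 fell; over all genes that scaling changed the split from 3663 higher and 2502 lower to 3076 higher and 3347 lower.

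The calls lay mostly among the genes with brighter signals. Of the 25 members whose mean was above that of the median gene, 14 were called in HFD against LFD (56 percent), beside 44.1 percent of all genes in the same range. By role, 7 of the 10 active somatic ADAM genes were called, 6 higher (Adam8, Adam9, Adam10, Adam12, Adam17 and Adam19) and 1 lower (Adam33). Among the 7 proteoglycan-cleaving ADAMTS genes, Adamts4 and Adamts15 rose and Adamts9 fell. Adamts6, Adamts7, Adamtsl3 and the receptor-like Adam22 also rose, while Adamtsl4, Adam4 and Adam26b fell.

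Calorie restriction on the high fat diet was the second comparison. In HFD+CR against HFD fat, 9 members fell and 3 rose. These 12 of 57 members are 21.1 percent, against 19 percent of all genes. The 9 that fell are 15.8 percent, against 11.3 percent of all genes, and the 3 that rose are 5.26 percent, against 7.69 percent. Groups did not overlap for 9 of 57 members, against 3035 of 22180 genes (13.7 percent), and the median member difference was -0.01. Of the 25 brighter members 10 were called (40 percent), beside 31.8 percent of the genes in that range. Leaving out the 4 arrays with muscle or gland transcripts gave 11 members, leaving out HFD+CR mouse 1 too gave 10, and leaving out LFD mice 3 and 6 gave 12. LFD mice are not in this comparison, so leaving them out changes the shared spread and the adjusted p but no difference.

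Restricted mice on the high fat diet were then set against LFD mice. Only 4 members were called, all higher in HFD+CR: Adam8, Adam9, Adam22 and Adamts6. They are 7.02 percent of the members, against 9.08 percent of all genes called in either direction, 5.8 percent higher and 3.28 percent lower. Groups did not overlap for 3 of the 57 members (Adam9, Adam22 and Adamts6), against 1480 of 22180 genes (6.67 percent). Without the 4 arrays with muscle or gland transcripts 3 members were called, 2 higher and 1 lower, of which 2 were among these 4 (Adam8 and Adam22). Leaving out HFD+CR mouse 1 too gave 2 higher and 2 lower, and again 2 were among these 4 (Adam8 and Adam22). Without LFD mice 3 and 6 the count was 2 higher and 1 lower, with 2 of these 4 (Adam22 and Adamts6). With array medians subtracted the 4 calls became 3 higher and 1 lower.

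Across the 3 comparisons, 19 members were called at least once and 38 were not. The 19 are 33.3 percent of the members, against 33.7 percent of all genes. The first 2 comparisons share the HFD mice, so a gene that is high in those mice counts in both. Side by side, 8 members were higher in HFD than in LFD and lower in HFD+CR than in HFD: Adam8, Adam10, Adam12, Adam17, Adam19, Adamts4, Adamts15 and Adamtsl3. They are 14 percent of the members, against 9.4 percent of all genes. Adam33 and Adam4 went the opposite way, which is 3.51 percent against 4.77 percent. Adam22, Adam9 and Adamts6 were higher in both high fat groups than in LFD, with no call between those 2 groups, a pattern of 5.26 percent of the members and 2.32 percent of all genes. No test was made of these shares. Without the 4 arrays with muscle or gland transcripts, 2 of these HFD+CR calls against LFD were lost. They were those of Adam9 (0.14, adjusted p = 0.107) and Adamts6 (0.26, adjusted p = 0.105). The Adam22 call was kept (0.62, adjusted p = 0.000183).

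**Figure D1:**
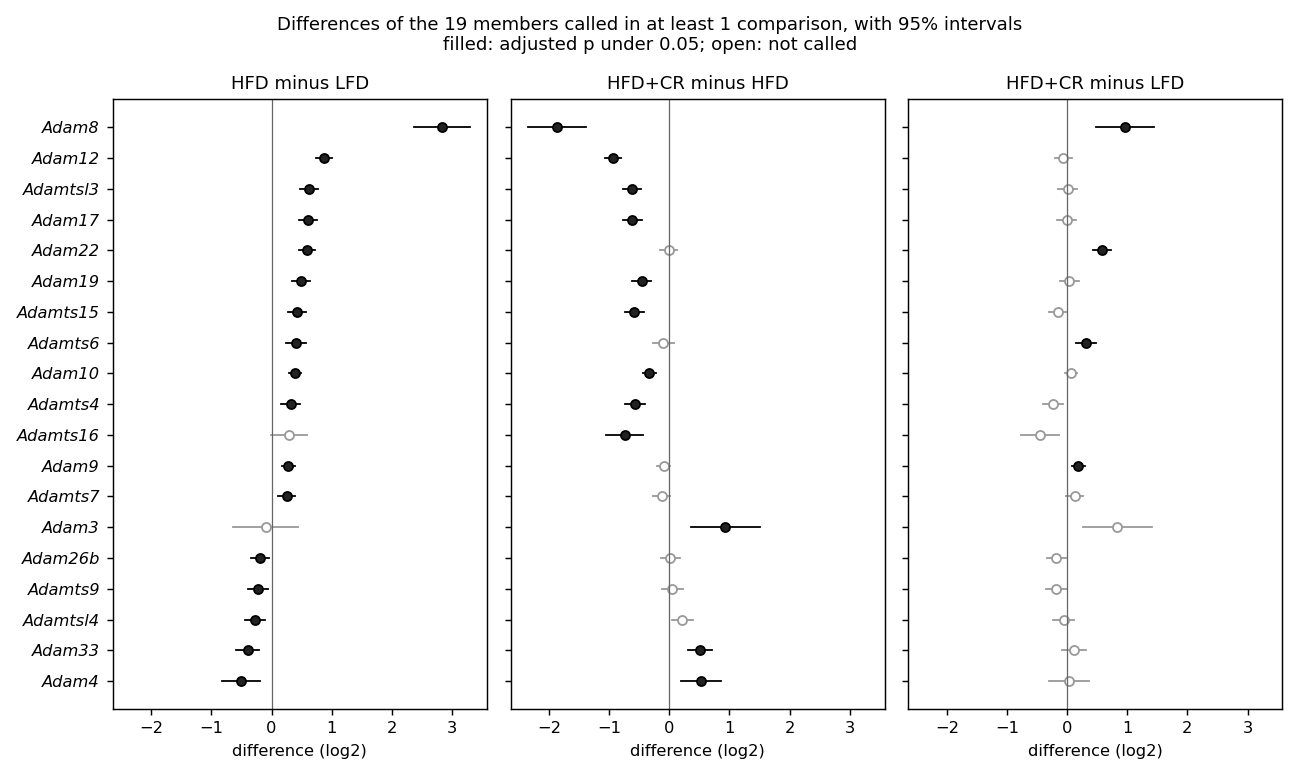
Differences in log2 signal (x axis) for the 19 members called in at least 1 comparison, with 95% intervals from the limma fit; filled points passed an adjusted p of 0.05 and open points did not. Adam8 lies farthest from zero in the first panel, at 2.83, and most genes to the right of zero there lie to the left of it in the second.

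Adam8 is a sheddase known from macrophages, neutrophils and other leukocytes. Its signal in LFD mice ran from 7.82 to 8.43 with a median of 8.11, and in HFD mice from 10.53 to 11.26 with a median of 10.89. The 5 HFD+CR mice had 9.73, 8.02, 8.72, 9.39 and 9.41. All HFD mice were above all mice of both other groups, and HFD+CR mouse 2 lay inside the LFD range while the other HFD+CR mice lay above it. Adam8 rose by 2.83 ± 0.22 (SE) in HFD against LFD, 7.12-fold (adjusted p = 4.58e-08). It fell by 1.87 ± 0.23 with restriction (adjusted p = 2.53e-05), and stayed 0.96 ± 0.23 above LFD, 1.95-fold (adjusted p = 0.0132). That last difference was 0.79 without HFD+CR mouse 1 and 1.22 without HFD+CR mouse 2, and it was called in both. Without LFD mice 3 and 6 it was 0.85 and missed the threshold (adjusted p = 0.0667).

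Macrophage markers moved with Adam8. The mean of 8 such markers lay between 9.70 and 10.2 in LFD mice, 10.9 and 11.4 in HFD mice, and 10.2 and 10.6 in HFD+CR mice. Of the 8 markers 7 rose in HFD against LFD, and 7 fell and 1 rose in HFD+CR against HFD, with no marker of the list below the array median on every array. The HFD mouse with the highest Adam8 signal, mouse 6, also had the highest macrophage mean, 11.4. In whole tissue, more cells of a type and more RNA per cell cannot be told apart, and the part of the macrophage markers in the Adam8 differences was not tested.

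**Figure D2:**
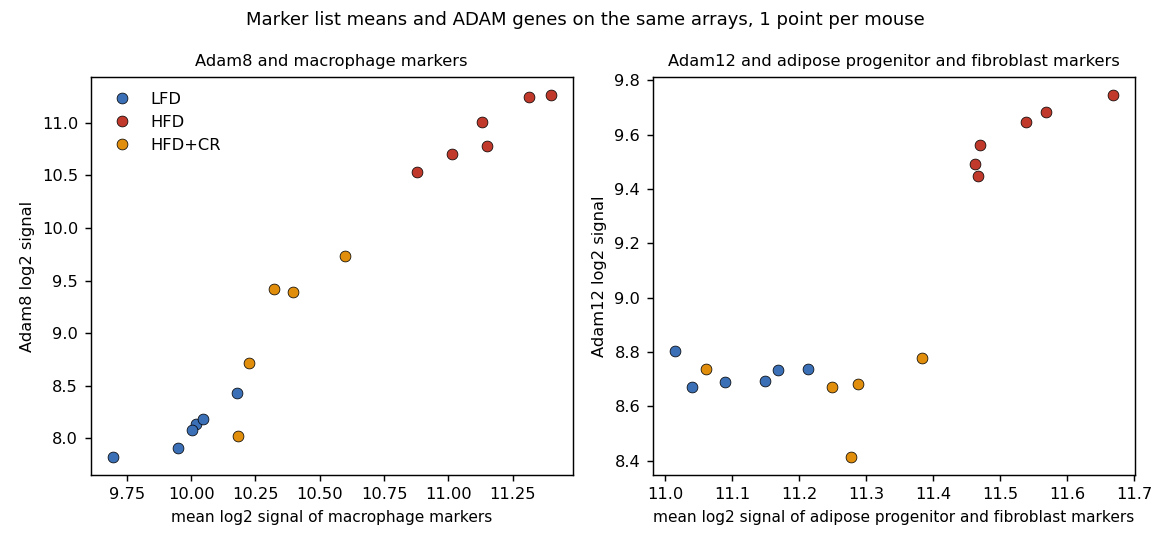
Left, Adam8 log2 signal against the mean log2 signal of 8 macrophage markers; right, Adam12 log2 signal against the mean of 9 adipose progenitor and fibroblast markers; 1 point per mouse, coloured by group. On both panels the HFD mice lie apart at the upper right, while the Adam12 signal of HFD+CR mice stays between 8.41 and 8.78 with marker means from 11.06 to 11.38.

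Adam12, a sheddase of mesenchymal cells that marks activated fibroblasts and perivascular progenitors, had the smallest adjusted p of the family. LFD mice ran from 8.67 to 8.80 with a median of 8.71, and HFD mice from 9.45 to 9.74 with a median of 9.61. HFD+CR mice had 8.78, 8.68, 8.41, 8.67 and 8.74. Every HFD mouse was above every other mouse, and the HFD+CR and LFD mice overlapped. The difference was 0.87 ± 0.06 in HFD against LFD, 1.83-fold (adjusted p = 1.97e-08), and -0.94 ± 0.06 in HFD+CR against HFD (adjusted p = 4.61e-07). In HFD+CR against LFD it was -0.06, with a 95% interval from -0.20 to 0.07 (adjusted p = 0.627).

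Progenitor and fibroblast markers, 9 measured of 10 listed, had means between 11.01 and 11.21 in LFD mice, 11.46 and 11.67 in HFD mice, and 11.06 and 11.38 in HFD+CR mice. Of the 9 markers 6 rose in HFD against LFD and 4 fell in HFD+CR against HFD, and none was below the array median on every array. Their part in the Adam12 differences was not tested.

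Adam17, the converting enzyme that releases tumor necrosis factor and several EGF receptor ligands, ran from 9.05 to 9.29 in LFD mice (median 9.20) and from 9.55 to 9.98 in HFD mice (median 9.83). HFD+CR mice had 9.23, 9.31, 9.13, 9.21 and 9.02, all below the lowest HFD mouse and overlapping the LFD mice. Adam17 rose by 0.61 ± 0.07 in HFD against LFD, 1.53-fold (adjusted p = 3.37e-06), and differed by -0.62 ± 0.07 in HFD+CR against HFD (adjusted p = 2.08e-05). The HFD+CR to LFD difference was -0.01, with a 95% interval from -0.16 to 0.15.

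Adam10, which sheds Notch receptors and many other membrane proteins, varied little within each group. LFD mice lay between 10.01 and 10.24 (median 10.11), HFD mice between 10.41 and 10.57 (median 10.53), and HFD+CR mice had 10.28, 10.22, 10.20, 10.16 and 10.03. HFD mice again stood above all others. The difference was 0.40 ± 0.05 in HFD against LFD (adjusted p = 5.28e-06) and -0.33 ± 0.05 in HFD+CR against HFD (adjusted p = 0.000132).

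Adam19, which sheds neuregulins and acts in heart development, ran from 8.37 to 8.65 in LFD mice (median 8.57) and from 8.81 to 9.18 in HFD mice (median 9.11). HFD+CR mice had 8.72, 8.59, 8.66, 8.42 and 8.49, below all HFD mice. Its difference was 0.50 ± 0.07 in HFD against LFD (adjusted p = 4.38e-05) and -0.46 ± 0.08 in HFD+CR against HFD (adjusted p = 0.000309). A second, dimmer Adam19 probe set moved the same way with smaller differences, 0.17 (adjusted p = 0.0827) and -0.23 (adjusted p = 0.0373) with every probe set tested on its own.

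**Figure D3:**
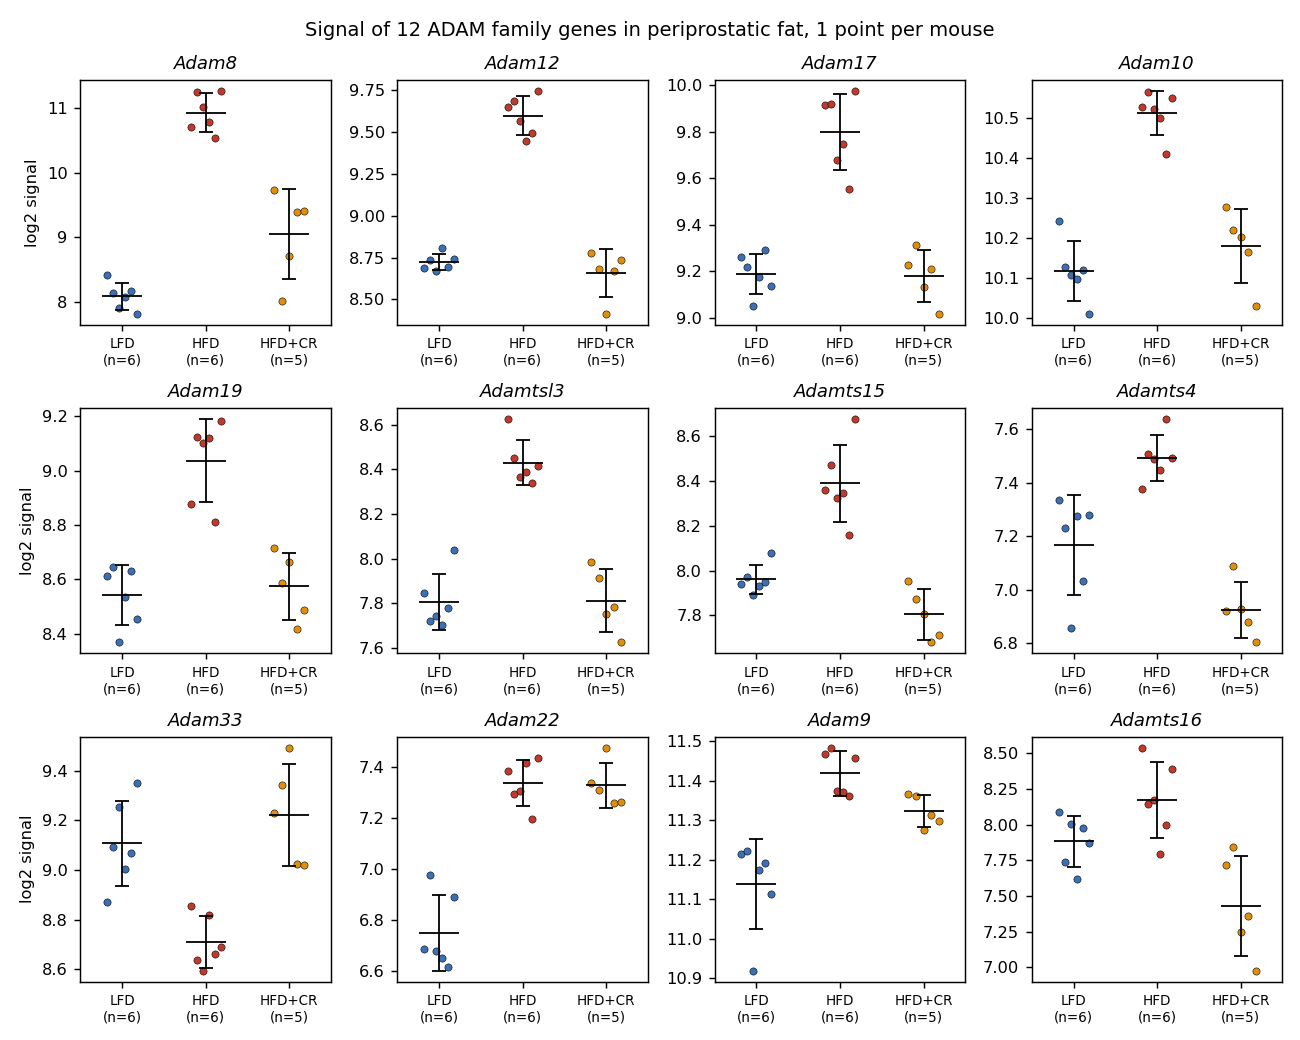
Log2 signal of 12 members in each mouse of the LFD (n = 6), HFD (n = 6) and HFD+CR (n = 5) groups; bars are group means with the SD, and each panel has its own y axis. In the panels from Adam8 to Adamts4 the HFD mice lie above every other mouse, in the Adam33 panel they lie below, and in the Adam22 panel both high fat groups lie above LFD.

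RefSeq promoter windows (build GRCm38.p6) were at hand for 30 members, 32 windows in all, and for 5 of the 10 members called in opposite directions in the first 2 comparisons. The 250 bases before each start were searched on both strands for 5 motifs in all 32851 windows. The AP-1 motif TGANTCA stood in 6.75 percent of all windows and in 4 of the 32 member windows (Adam19, Adam20, Adam25 and Adam29). The GC box GGGGCGGGG stood in 10.4 percent of all windows and in 4 member windows (Adam17, Adamts9, Adamts14 and Adamts18). The E-box GTCACGTG stood in 1.85 percent and in Adam10, and the PU.1 motif GAGGAAGT in 2.44 percent and in Adam29. The cyclic AMP motif TGACGTCA stood in 1.55 percent of all windows and in no member window. The 4 promoters below belong to active ADAM genes that were high in HFD mice, and are printed 5′ to 3′ up to the base before the start, with any searched motif in capitals. Adam8 (chr7:139992563-139992812, minus strand) holds none of these letters. Adam17 (chr12:21373633-21373882, minus strand) has the GC box from position -76, Adam10 (chr9:70678732-70678981, plus strand) the E-box from -66, and the second of 3 Adam19 starts (chr11:46055734-46055983, plus strand) AP-1 from -131. A match is a run of letters, not a bound site.
Adam8: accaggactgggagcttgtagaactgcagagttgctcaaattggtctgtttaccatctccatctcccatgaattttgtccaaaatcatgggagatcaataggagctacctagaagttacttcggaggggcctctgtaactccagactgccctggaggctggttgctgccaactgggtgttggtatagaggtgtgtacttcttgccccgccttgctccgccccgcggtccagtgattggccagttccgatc
Adam17: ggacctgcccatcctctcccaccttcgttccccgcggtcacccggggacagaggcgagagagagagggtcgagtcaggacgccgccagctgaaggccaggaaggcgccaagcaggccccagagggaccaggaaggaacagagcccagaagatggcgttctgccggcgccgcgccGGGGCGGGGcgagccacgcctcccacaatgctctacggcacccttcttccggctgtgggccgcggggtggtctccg
Adam10: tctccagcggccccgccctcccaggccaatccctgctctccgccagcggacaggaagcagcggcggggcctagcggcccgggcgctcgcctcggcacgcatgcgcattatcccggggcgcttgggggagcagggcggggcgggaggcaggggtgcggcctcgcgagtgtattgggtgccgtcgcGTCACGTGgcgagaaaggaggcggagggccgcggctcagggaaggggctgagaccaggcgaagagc
Adam19: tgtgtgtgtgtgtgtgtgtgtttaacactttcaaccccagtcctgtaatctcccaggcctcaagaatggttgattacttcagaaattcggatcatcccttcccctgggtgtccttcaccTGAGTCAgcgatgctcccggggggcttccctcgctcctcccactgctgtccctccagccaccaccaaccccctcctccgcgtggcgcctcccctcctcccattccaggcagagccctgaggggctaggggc

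Adam9, another widely expressed sheddase, was higher in both high fat groups. LFD mice ran from 10.92 to 11.22 (median 11.18), HFD mice from 11.36 to 11.48 (median 11.41), and HFD+CR mice had 11.37, 11.36, 11.28, 11.31 and 11.30. LFD mice lay below all mice of both other groups. The difference from LFD was 0.28 ± 0.05 in HFD (adjusted p = 0.000313) and 0.18 ± 0.05 in HFD+CR (adjusted p = 0.0336). The HFD+CR call was lost under 10 alternatives, with adjusted p from 0.0532 to 0.253, among them leaving out HFD+CR mouse 1, 2, 4 or 5 or LFD mouse 6. Others left out the 4 arrays with muscle or gland transcripts (0.14, adjusted p = 0.107) or LFD mice 3 and 6 (0.12, adjusted p = 0.1115). The value of 0.253 came without these 4 arrays and HFD+CR mouse 1 (0.12). Between HFD+CR and HFD the difference was -0.10, with a 95% interval from -0.21 to 0.01.

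Adam33, a mesenchymal ADAM known from airway smooth muscle and asthma genetics, moved the opposite way to the sheddases above. LFD mice had 8.87 to 9.35 (median 9.08), HFD mice 8.59 to 8.85 (median 8.68), and HFD+CR mice 9.23, 9.34, 9.49, 9.02 and 9.02. All HFD mice were below all others. Adam33 fell by 0.40 ± 0.09 in HFD against LFD (adjusted p = 0.00219) and rose by 0.51 ± 0.09 in HFD+CR against HFD (adjusted p = 0.000685). Of the other active somatic genes, Adam15 had differences of -0.09, 0.06 and -0.03 in the 3 comparisons, with adjusted p from 0.257 to 0.823. The first was called under 2 alternatives. It was -0.13 with array weights (adjusted p = 0.0387) and -0.13 without LFD mouse 3 (adjusted p = 0.0396). Adam28 and Adamdec1, both known from immune cells, were below the array median on every array and passed no test.

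Adam22 is a membrane protein without an active site, known as a receptor of LGI proteins in neurons. LFD mice had 6.62 to 6.98 (median 6.68), HFD mice 7.20 to 7.43 (median 7.35), and HFD+CR mice 7.34, 7.31, 7.48, 7.26 and 7.26. The LFD mice did not overlap with either high fat group, and all 6 were below the median of their arrays. The difference was 0.59 ± 0.07 in HFD against LFD (adjusted p = 1.86e-06) and 0.58 ± 0.07 in HFD+CR against LFD (adjusted p = 4.90e-05). With the array median in place of lower signals they were 0.26 and 0.25, and both were still called. HFD+CR and HFD differed by -0.01, with a 95% interval from -0.15 to 0.13. The related Adam11 and Adam23 passed no test in any comparison, with adjusted p from 0.226 to 0.800. For Adam11 the HFD to LFD difference of -0.17 became -0.36 without the 4 arrays with muscle or gland transcripts and then passed (adjusted p = 0.0339), as it did with HFD+CR mouse 1 left out too (adjusted p = 0.0379).

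Among the secreted proteoglycan-cleaving enzymes, Adamts15 and Adamts4 were high in HFD mice. Adamts15 had 7.89 to 8.08 in LFD mice (median 7.95), 8.16 to 8.68 in HFD mice (median 8.35), and 7.95, 7.87, 7.81, 7.68 and 7.71 in HFD+CR mice. All HFD mice were above all others. Adamts15 rose by 0.43 ± 0.07 in HFD against LFD (adjusted p = 0.000134) and differed by -0.59 ± 0.07 in HFD+CR against HFD (adjusted p = 2.85e-05).

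Adamts4, an aggrecanase that also cuts versican, had 6.85 to 7.34 in LFD mice (median 7.25), 7.37 to 7.64 in HFD mice (median 7.49), and 6.92, 7.09, 6.93, 6.88 and 6.80 in HFD+CR mice. HFD mice were above all others, and all 5 HFD+CR mice were below their array medians. Adamts4 rose by 0.32 ± 0.07 in HFD against LFD (adjusted p = 0.00301) and differed by -0.57 ± 0.08 in HFD+CR against HFD (adjusted p = 6.23e-05). With the array median in place of lower signals these differences were 0.28 and -0.40, both called. Against LFD, the HFD+CR difference of -0.24 missed the threshold (adjusted p = 0.0641) and passed it under 8 alternatives.

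The other proteoglycan-cleaving genes behaved differently. Adamts9, known to cut versican, had 10.17 to 10.62 in LFD mice (median 10.40), 9.89 to 10.34 in HFD mice (median 10.21), and 10.19, 10.43, 10.22, 10.12 and 10.14 in HFD+CR mice. Its groups overlapped. It fell by 0.23 ± 0.08 in HFD against LFD (adjusted p = 0.0344), and the call was lost under 8 alternatives, among them leaving out HFD mouse 1 (-0.17, adjusted p = 0.0850) or 2, or any LFD mouse but mouse 3 (adjusted p up to 0.0879).

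Adamts5, the main aggrecanase of mouse cartilage, ran from 11.74 to 12.46 in LFD mice (median 12.28), from 12.22 to 12.36 in HFD mice (median 12.26), and was 12.37, 12.31, 12.19, 12.21 and 11.97 in HFD+CR mice. Its differences were 0.06, -0.07 and -0.01 in the 3 comparisons, and the first had a 95% interval from -0.15 to 0.26. Adamts1, an aggrecanase induced by inflammation and in the ovary, ran from 9.53 to 10.52 in LFD mice (median 9.94), from 9.89 to 10.40 in HFD mice (median 10.01), and was 9.92, 9.87, 9.78, 9.80 and 9.57 in HFD+CR mice. The groups of both genes overlapped. For Adamts1 the difference in HFD+CR against HFD was -0.26 ± 0.13 (adjusted p = 0.198). Adamts5 and Adamts1 are neighbours in the RefSeq annotation of GRCm38.p6, as are Adamts15 and Adamts8; Adamts8 was below the array median on every array.

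Adamts7 and Adamts12 cut cartilage oligomeric matrix protein. Adamts7 had 7.59 to 8.005 in LFD mice (median 7.89), 8.01 to 8.17 in HFD mice (median 8.10), and 8.11, 7.91, 7.92, 7.95 and 7.89 in HFD+CR mice. It rose by 0.25 ± 0.07 in HFD against LFD (adjusted p = 0.00762). Without the 4 arrays with muscle or gland transcripts that difference was 0.14 (adjusted p = 0.0807). Adamts12 ran from 9.85 to 10.17 in LFD mice (median 9.93), from 9.93 to 10.16 in HFD mice (median 9.97), and was 9.78, 9.96, 10.01, 9.85 and 9.97 in HFD+CR mice. The Adamts12 groups overlapped, with differences of 0.03, -0.10 and -0.07 and adjusted p from 0.327 to 0.751.

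Of the fibrillin-related enzymes, Adamts6 rose in both high fat groups and Adamts16 was low in restricted mice. Adamts6 had 7.61 to 7.93 in LFD mice (median 7.80), 7.99 to 8.42 in HFD mice (median 8.16), and 8.02, 8.14, 8.25, 8.05 and 8.03 in HFD+CR mice, so LFD mice were below all others. The difference from LFD was 0.41 ± 0.08 in HFD (adjusted p = 0.000502) and 0.31 ± 0.08 in HFD+CR (adjusted p = 0.0208). The HFD+CR call was lost under 4 alternatives, among them leaving out HFD+CR mouse 3 or LFD mouse 4. Another left out the 4 arrays with muscle or gland transcripts (0.26, adjusted p = 0.105). The last left out these and HFD+CR mouse 1 (0.28, adjusted p = 0.134). Adamts16, known from kidney and gonads, had 7.62 to 8.09 in LFD mice (median 7.92), 7.80 to 8.54 in HFD mice (median 8.16), and 7.72, 7.84, 7.25, 7.36 and 6.98 in HFD+CR mice. HFD+CR mouse 2 lay just above the lowest HFD mouse. Adamts16 differed by -0.74 ± 0.15 in HFD+CR against HFD (adjusted p = 0.00148), by 0.29 ± 0.14 in HFD against LFD (adjusted p = 0.145) and by -0.45 ± 0.15 in HFD+CR against LFD (adjusted p = 0.0665). The last of these was called under 5 alternatives, among them leaving out HFD+CR mouse 1 or 2, and was -0.69 without HFD+CR mouse 1 and the 4 arrays with muscle or gland transcripts (adjusted p = 0.0219). The remaining 4, Adamts10, Adamts17, Adamts18 and Adamts19, passed no test, with differences between -0.15 and 0.13.

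Both measured procollagen N-propeptidases missed the threshold. The larger of their differences in HFD against LFD was 0.20 for Adamts14 (adjusted p = 0.0769), and that of Adamts3, whose probe set was below the array median on every array, was 0.09 (adjusted p = 0.533). Adamts13, the von Willebrand factor protease of liver, was also below the median on every array and differed by 0.09 in HFD against LFD (adjusted p = 0.507).

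Adamtsl3, a matrix protein without protease domain, followed the pattern of Adam12. LFD mice had 7.70 to 8.04 (median 7.76), HFD mice 8.34 to 8.62 (median 8.40), and HFD+CR mice 7.98, 7.91, 7.75, 7.78 and 7.62. All HFD mice were above all others. Adamtsl3 rose by 0.63 ± 0.07 in HFD against LFD (adjusted p = 1.83e-06) and differed by -0.62 ± 0.07 in HFD+CR against HFD (adjusted p = 1.70e-05). HFD+CR and LFD differed by 0.01, with a 95% interval from -0.15 to 0.16.

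Adamtsl4, which binds fibrillin microfibrils and is known from the suspension of the eye lens, had 9.30 to 9.74 in LFD mice (median 9.49), 9.14 to 9.42 in HFD mice (median 9.21), and 9.31, 9.53, 9.73, 9.35 and 9.30 in HFD+CR mice. It fell by 0.28 ± 0.08 in HFD against LFD (adjusted p = 0.0156), with overlapping groups, and missed the threshold without LFD mice 3 and 6 (-0.24, adjusted p = 0.0561). It differed by 0.22 ± 0.09 in HFD+CR against HFD (adjusted p = 0.0917). Adamtsl1, Adamtsl2 and Adamtsl5 passed no test, with differences between -0.19 and 0.28.

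**Figure D4:**
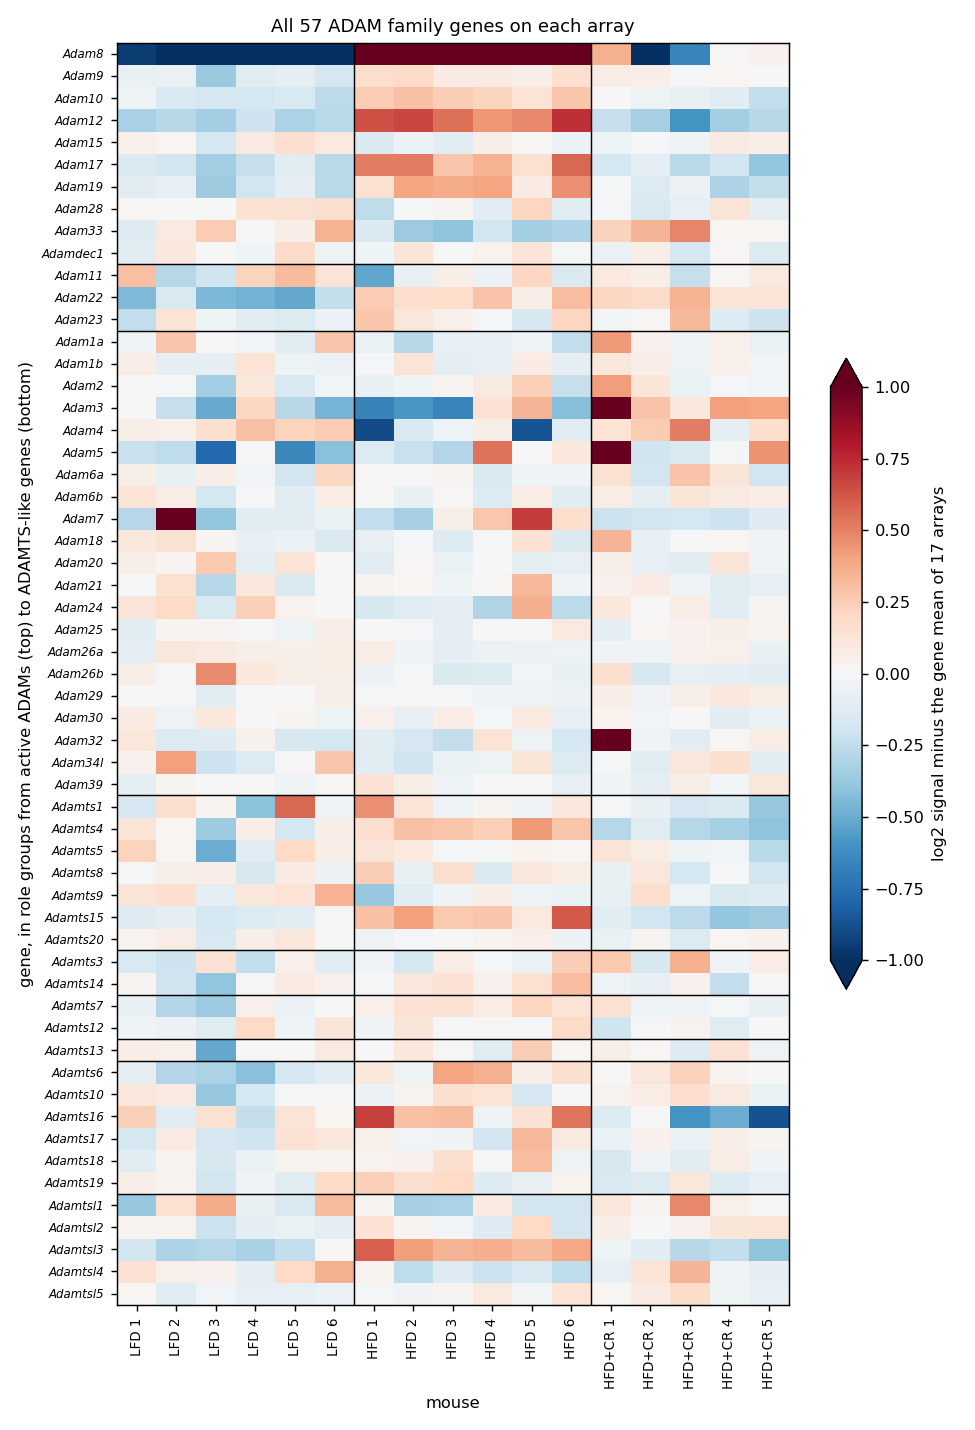
Log2 signal minus the gene's mean over 17 arrays (colour, limited to 1 in either direction) for all 57 members (rows, in role groups split by lines) on each array (columns, in groups split by lines). Adam8, Adam12 and Adam17 at the top stand out across all HFD mice, while among the germ cell genes Adam3, Adam5 and Adam32 stand out in HFD+CR mouse 1 and Adam7 in LFD mouse 2.

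Of the 21 genes known from germ cells, sperm or epididymis, Adam4 and Adam26b fell in HFD against LFD, and Adam3 and Adam4 rose in HFD+CR against HFD. Adam4, known from testis, was above the array median on all arrays except 1. It had 8.05 to 8.29 in LFD mice (median 8.20), 7.11 to 8.06 in HFD mice (median 7.87), and 8.14, 8.26, 8.52, 7.91 and 8.17 in HFD+CR mice. HFD mice 1 and 5, at 7.11 and 7.14, lay well below the other HFD mice, and the groups overlapped. Adam4 fell by 0.51 ± 0.15 in HFD against LFD (adjusted p = 0.0165), and the difference lay between -0.60 and -0.39 over all alternatives; it missed the threshold without LFD mice 3 and 6 (adjusted p = 0.0546). Its rise of 0.53 ± 0.16 in HFD+CR against HFD (adjusted p = 0.0241) missed the threshold under 5 alternatives, among them leaving out HFD mouse 1 or HFD+CR mouse 2 or 3, with adjusted p up to 0.0774. Adam26b fell by 0.20 (adjusted p = 0.0485), but its signals were below the array median in all mice and the call was lost under 21 alternatives, among them leaving out any single mouse other than HFD+CR mouse 1 or LFD mouse 2.

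Adam3, a sperm surface protein needed for sperm to pass into the oviduct, was led by 1 mouse. LFD mice had 6.41 to 7.12 (median 6.66), HFD mice 6.25 to 7.25 (median 6.41), and HFD+CR mice 8.84, 7.20, 7.02, 7.33 and 7.31. HFD+CR mouse 1 stood above all others, and the remaining HFD+CR mice overlapped the HFD mice. The difference was 0.93 ± 0.27 in HFD+CR against HFD (adjusted p = 0.0210) and 0.61 without HFD+CR mouse 1 (adjusted p = 0.0322). Without the 4 arrays with muscle or gland transcripts it was 0.95 (adjusted p = 0.0551), without these and HFD+CR mouse 1 it was 0.54 (adjusted p = 0.114), and with the array median in place of lower signals 0.46 (adjusted p = 0.208).

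In the RefSeq annotation of GRCm38.p6, Adam3 lies on chromosome 8 in a row of 5 neighbouring members, in the order Adam18, Adam3, Adam5, Adam32 and Adam9. In HFD+CR mouse 1 the first 4 had their highest signal of all 17 arrays, at 6.01, 8.84, 8.75 and 6.99, while Adam9, the somatic gene at the end of the row, had 11.37 there, within the range of the other arrays. The mean of male germ cell markers was also highest in HFD+CR mouse 1. Of 16 such markers 14 were measured, and their mean was 8.48 in that mouse against 7.16 to 7.35 in the other HFD+CR mice. Of the 14, 1 was called higher in HFD against LFD and 1 was called lower in HFD+CR against HFD. HFD mice had marker means of 6.85, 6.90, 6.88, 7.29, 7.36 and 7.00, and mice 4 and 5, with the highest of these, also had the highest Adam3 signals of the group, 7.06 and 7.25. Of these markers Tssk1, Tssk2, Zpbp, Ddx4 and Dazl were below the array median on every array. The part of the germ cell markers in the Adam3 difference was not tested.

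**Figure D5:**
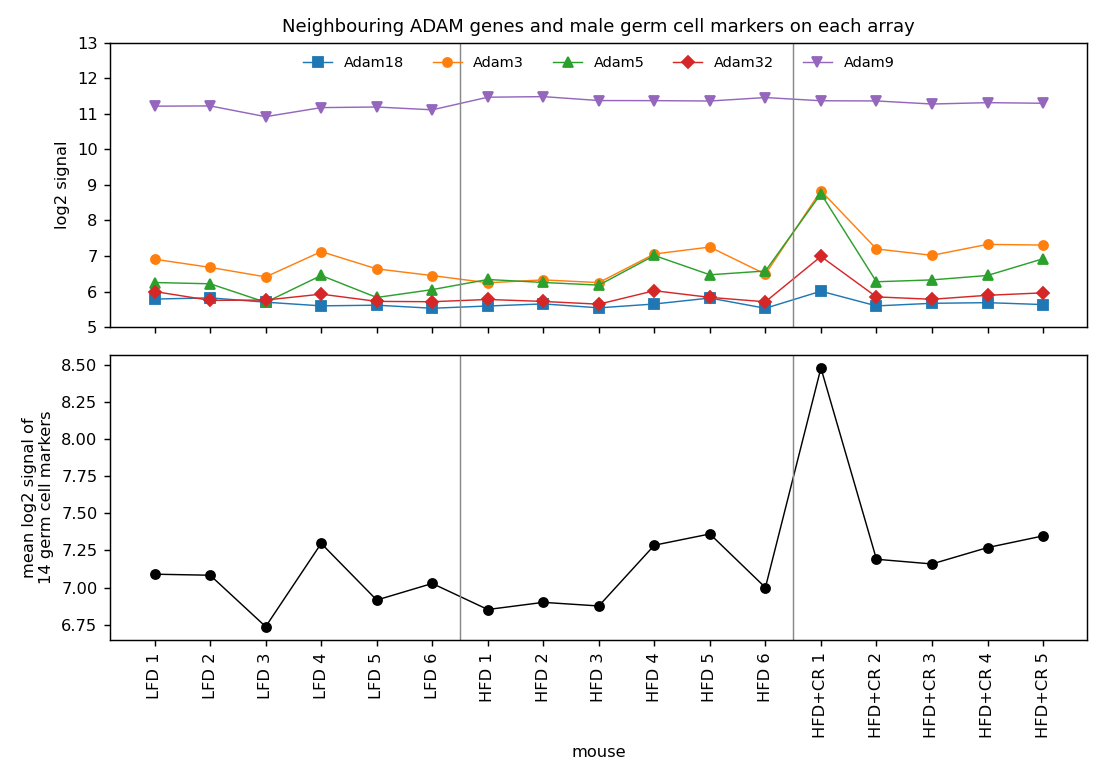
Top, log2 signal on each array of 5 neighbouring members of chromosome 8; bottom, mean log2 signal of 14 male germ cell markers on the same arrays (lines only join points of 1 series and carry no order). HFD+CR mouse 1 has the highest value of Adam18, Adam3, Adam5, Adam32 and the marker mean, and Adam9 has no peak there.

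Adam7, known from the epididymis, was 7.18 in LFD mouse 2 and between 5.54 and 6.63 in all other mice. The epididymis list, of which Adam7 is itself a member, had its highest mean in the same mouse, 6.67, against 5.95 to 6.33 elsewhere. Adam7 passed no test (adjusted p from 0.464 to 0.891). The other germ cell, sperm and epididymis genes, 17 in number, had differences between -0.20 and 0.86, with adjusted p of 0.108 or more. The value of 0.86 was that of Adam5 in HFD+CR against LFD (adjusted p = 0.124). All LFD mice were below their array medians for Adam5, and the difference was 0.34 with the array median in place of lower signals and 0.41 without HFD+CR mouse 1.

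The family's inhibitors moved in both directions. Of 6 measured, 2 rose and 2 fell in HFD against LFD, and 2 rose and 1 fell in HFD+CR against HFD. These are 66.7 and 50 percent of a short list, beside 27.8 and 19 percent of all genes. For genes with a mean above that of the median gene the shares were 44.1 and 31.8 percent. Timp1, an inhibitor of many metalloproteases and of ADAM10, rose by 2.87 ± 0.21 in HFD against LFD (adjusted p = 2.43e-08) and differed by -2.27 ± 0.22 in HFD+CR against HFD (adjusted p = 6.47e-06). Its LFD mean of 6.92 was below the lowest array median, and with the array median in place of lower signals the first difference was 2.68. Timp4 fell by 1.40 ± 0.11 and then rose by 1.20 ± 0.12 (adjusted p = 5.80e-08 and 6.47e-06). Timp3, the inhibitor of ADAM17 and of several ADAMTS enzymes, fell by 0.31 ± 0.09 in HFD against LFD (adjusted p = 0.0104), rose by 0.81 ± 0.09 in HFD+CR against HFD (adjusted p = 1.10e-05), and was 0.50 ± 0.09 above LFD in HFD+CR (adjusted p = 0.00160). Timp2 rose by 0.22 ± 0.05 in HFD against LFD (adjusted p = 0.00433).

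Genes for maturation and trafficking, all 12 measured, had 4 higher and 2 lower in HFD against LFD, and 1 higher and 4 lower in HFD+CR against HFD. That is 50 and 41.7 percent of the list, beside 27.8 and 19 percent of all genes. For genes with a mean above that of the median gene the shares were 44.1 and 31.8 percent. Frmd8, a partner of the iRhom proteins that carry ADAM17 to the cell surface, rose by 0.39 ± 0.05 (adjusted p = 4.66e-06) and differed by -0.35 ± 0.05 with restriction (adjusted p = 6.10e-05). Tspan15 and Tspan33, tetraspanins that escort ADAM10, rose by 0.50 ± 0.07 and 0.70 ± 0.11 and differed by -0.25 ± 0.07 and -0.52 ± 0.11 with restriction, with adjusted p between 3.43e-05 and 0.0226. Pcsk6, a proprotein convertase, fell by 0.60 ± 0.07 and rose by 0.41 ± 0.07 (adjusted p = 1.41e-06 and 0.000303). Rhbdf2, the iRhom2 gene, was named after its values were seen: its differences were 0.25 ± 0.07 and -0.26 ± 0.08 (adjusted p = 0.0145 and 0.0189).

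The list of membrane proteins and ligands that ADAM enzymes are known to shed also held Lgi1 to Lgi4, which encode ligands of Adam22 rather than shed proteins. Of its 33 symbols 30 were measured, and Pref1 and Dlk1 name the same gene. In HFD against LFD 12 rose and 2 fell, in HFD+CR against HFD 4 rose and 9 fell, and in HFD+CR against LFD 8 rose and 3 fell. Lgi1 and Dlk1, with lower means in HFD+CR than in LFD, reached at most 6.70 and 6.78. Both stayed below every array median, so their signals were not shown to be above background. The shares called were 46.7, 43.3 and 36.7 percent, beside 27.8, 19 and 9.08 percent of all genes. Of the genes with a mean above that of the median gene, 44.1, 31.8 and 15.9 percent were called. Without the 4 arrays with muscle or gland transcripts and HFD+CR mouse 1, the last count was 5 higher and 2 lower. Macrophage markers moved with this list (7 of 8 higher in HFD against LFD, 7 of 8 lower in HFD+CR against HFD), and their part in it was not tested. Csf1r and Mertk are in both lists, so the 2 sets of counts are not independent of each other. Trem2, a lipid receptor of macrophages, rose by 3.07 ± 0.21 in HFD against LFD (adjusted p = 1.05e-08), differed by -1.48 ± 0.22 in HFD+CR against HFD, and stayed 1.59 ± 0.22 above LFD. The tumor necrosis factor receptor gene Tnfrsf1b had differences of 0.99, -0.71 and 0.27, and the syndecan Sdc1 of 0.84, -0.52 and 0.32, all called. The chemokine gene Cxcl16 had 0.83 and -0.58, both called, and 0.25 against LFD (adjusted p = 0.123). Tnf and Btc were named after their values were seen. Tnf, the substrate after which ADAM17 was named, had 0.80 ± 0.10 and -0.71 ± 0.10 (adjusted p = 5.62e-06 and 8.79e-05). Betacellulin (Btc), an EGF receptor ligand released by ADAM10, rose in all 3 comparisons, by 0.25, 0.67 and 0.93 (adjusted p = 0.0493, 8.90e-05 and 1.57e-05).

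Of 18 listed matrix substrates of ADAMTS enzymes 17 were measured, and 8 rose in HFD against LFD and 9 fell in HFD+CR against HFD. These are 47.1 and 52.9 percent, beside 16.5 percent of all genes higher in the first comparison and 11.3 percent lower in the second. For genes with a mean above that of the median gene these shares were 27.4 and 18.9 percent. Col1a1, whose procollagen is trimmed by N-propeptidases, rose by 0.91 ± 0.09 (adjusted p = 8.59e-07) and differed by -0.88 ± 0.10 with restriction (adjusted p = 1.19e-05). The matching differences were 0.61 and -0.52 for Col1a2, 0.49 and -0.75 for Col3a1, and 0.66 and -0.34 for the small proteoglycan Bgn, all called. Col1a1, Col1a2 and Dcn are also in the progenitor and fibroblast marker list, so these counts and that list are not independent of each other.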

How the data were processed

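Total RNA of periprostatic fat from 17 mice was hybridized to Affymetrix Mouse Gene 2.0 ST arrays, per the labels' protocols. The deposited table holds log2 signals, and the submitters' processing notes name RMA, limma and R 3.5.0; the genome build is not given in the sources used here, and other settings are not known. Probe sets were named through the platform annotation: of 33793, 23521 had 1 symbol, 1814 several and 8458 none. All 57 members matched RefSeq by gene ID.

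A single limma fit (version 3.58.1, R 4.3.3, eBayes without trend) gave each group its mean from the 17 arrays, and p-values were adjusted by Benjamini-Hochberg over 22180 genes; a call is an adjusted p under 0.05. Precision is limited by 5 or 6 mice per group, each labelled a separate animal. The fit was tested on simulated data. Samples were not treated as paired by mouse number. Of 16 same-number pairs 5 had a residual correlation over 0.1. Pairs with different numbers were not compared, so this check cannot exclude a pairing. Values are given for every called member and for a short list of members, in full for those of largest difference, and for up to 4 pathway genes per list with the smallest adjusted p. Members, role groups, pathway lists, markers and alternatives were chosen with earlier results of these data known. The array median as a floor, and leaving out LFD mice 3 and 6, were chosen after seeing the data.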

Additional observations from a re-analysis of the deposited data

Results flagged for a closer look

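In 21 of 171 groups of a member (12.3 percent), 1 mouse stood far from the rest by Dixon's test at 95%, which chance gives in about 1 group in 20. HFD+CR mouse 1 accounted for 8 of them. It was highest for Adam3 (8.84), Adam5 (8.75), Adam32 (6.99), Adam18 (6.01), Adam1a (7.51), Adam26b (5.22) and Adamts7 (8.11), and lowest for Adam25 (4.74). Its male germ cell marker mean was 8.48, the highest of all arrays.

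HFD+CR mouse 3 was highest for Adamtsl1 (9.03) and Adamts19 (6.76) and lowest for Adam11 (7.12), and HFD+CR mouse 2 was lowest for Adam6b (4.84). LFD mouse 3, with muscle and gland markers, was lowest for Adam9 (10.9) and Adamts13 (6.24) and highest for Adam26b (5.53). LFD mouse 2 was highest for Adam7 (7.18), and LFD mouse 1 lowest for Adam26a (4.74). HFD mouse 5 was highest for Adam21 (6.39) and Adam24 (6.26), and HFD mouse 1 for Adamts1 (10.4) and Adam26a (4.90). No cause was tested.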

How the results depend on the processing

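Counts of called members were 17 in HFD against LFD, 12 in HFD+CR against HFD and 4 in HFD+CR against LFD. Leaving out each mouse in turn gave 15 to 18, 11 to 13 and 3 to 5. Asking for at least a 1.5-fold difference as well gave 5, 7 and 1, by construction, and an adjusted p under 0.01 left 1 in HFD+CR against LFD. With the replicate block (mouse number) the counts were 16, 12 and 5. Residual correlations of same-number pairs ran from -0.108 to 0.409. Array weights gave 19, 17 and 5. Leaving out LFD mice 3 and 6, chosen after seeing the data, gave 14, 12 and 3. Of 33 called differences 11 were called under every alternative in which they were tested, 10 of these under all 33 alternatives, and none of the 33 differences reversed. Several alternatives leave a difference unchanged and so cannot reverse it. Examples are a stricter threshold and leaving out a mouse of the group not compared. Apart from the 1.5-fold and 0.01 settings, calls were lost for Adam26b, Adamts9, Adamts7, Adam4 and Adamtsl4 in HFD against LFD, Adam4 and Adam3 in HFD+CR against HFD, and Adam9, Adamts6 and Adam8 in HFD+CR against LFD; the cause was not tested. Of 138 uncalled differences, 18 were called under at least 1 alternative. For the 24 members below the array median on all arrays, signal over background limits what could be detected.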
